A study of Homo sapiens with 3 samples.

Results

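The matrix metalloproteinases (MMP genes), the ADAMTS proteases and the tissue inhibitors of metalloproteinases (TIMP genes) were examined in SK-Hep-1, an established human line derived from a liver adenocarcinoma. The members were the protein-coding genes of the deposited table whose symbol is MMP, ADAMTS or TIMP followed by a number. They came to 40 of 16858 protein-coding genes: 18 MMP, 19 ADAMTS and 3 TIMP genes. Family genes that the table did not list, such as TIMP4 and MMP8, are not covered. Each of 3 groups was 1 library of stably transduced cells. The shNC cells carried a negative control hairpin, and the sh1089-1 and sh1089-2 cells carried different lentiviral hairpins against the long noncoding RNA LINC01089. The labels do not say whether a line is 1 clone or a pool. Since each group is a single library, replicate error is unknown, no test was possible, and every difference below is one between libraries.

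MMPs and ADAMTS proteases are zinc-dependent enzymes that cut the extracellular matrix. They are made as inactive precursors, and a zinc ion held by histidines does the chemistry. MMPs include secreted collagenases, gelatinases and stromelysins and the membrane-type enzymes, which sit on the cell surface. ADAMTS enzymes are secreted and are known for cutting proteoglycans, processing procollagen and trimming von Willebrand factor. TIMPs are small secreted proteins that block the zinc site, and TIMP3 is the member that stays bound to the matrix and also inhibits ADAMTS enzymes. In liver tumours these genes are studied for invasion and fibrosis.

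The zinc site is shown because it is what the 37 proteases share and the inhibitors block. In the main coding transcript of GENCODE 29, a histidine and a glutamate codon followed by further histidine codons, the zinc-binding motif of the metzincins, was found exactly 1 time in 18 of 18 MMP and 19 of 19 ADAMTS genes, and in 0 of 3 TIMP genes. The sites of 6 members follow, 5′ to 3′, with the histidine and glutamate codons in capitals.
MMP14: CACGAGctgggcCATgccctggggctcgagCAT
MMP9: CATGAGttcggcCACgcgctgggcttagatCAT
MMP3: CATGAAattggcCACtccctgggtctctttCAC
ADAMTS1: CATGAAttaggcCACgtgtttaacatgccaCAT
ADAMTS6: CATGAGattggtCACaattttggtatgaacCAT
ADAMTS10: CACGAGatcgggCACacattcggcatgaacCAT
The families differ in gene structure here. The 33 bases lay within 1 exon in all 18 MMP genes and across 2 exons in all 19 ADAMTS genes. In MMP14 the site is in exon 5 at chr14:22843283-22843315 on the plus strand of GRCh38, in MMP9 in exon 8 at chr20:46012453-46012485 on the plus strand, and in MMP3 in exon 5 at chr11:102840535-102840567 on the minus strand. The ADAMTS6 site begins in exon 9 and spans an intron, at chr5:65300116-65329394 on the minus strand. All 18 MMP and 14 of the 19 ADAMTS genes have a glycine codon between the second and the third histidine codons. ADAMTS1 is among the 5 without it. The ADAMTS6 and ADAMTS10 sites differ at 7 of 33 bases.

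Depth, recovered from the steps between values, was 10698480 reads in shNC, 9528312 in sh1089-1 and 8359832 in sh1089-2. The targeted RNA, LINC01089, was not analysed here, and the knockdown was therefore not checked. Of the hepatocyte markers, 6 were listed and 1, SERPINA1, reached 1 FPKM, while TTR, APOA1 and FGB were at 0 in all 3 libraries. None of 6 endothelial markers reached 1 FPKM. Of the epithelial markers, EPCAM and CDH1 lay below 0.12 FPKM in each library, and the keratins KRT8, KRT18 and KRT19 summed with them to 1647, 2574 and 2537 FPKM. The 7 fibroblast and mesenchymal markers summed to 934, 1186 and 1461 FPKM, nearly all of it VIM, a filament gene, with 922, 1171 and 1445. The others did not follow 1 pattern: THY1 had 6.85, 12.2 and 11.9 FPKM, PDGFRB 2.03, 1.26 and 1.94, and LUM 2.17, 1.22 and 0.896, while COL1A1, COL1A2 and DCN stayed below 1 FPKM. The part of these markers in the results below was not tested. In bulk libraries fewer cells of a kind and less RNA per cell cannot be told apart.

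Values are FPKM, fragments scaled to gene length and library depth, so levels can be compared between genes. Unless said otherwise, 3 values in a row are shNC, sh1089-1 and sh1089-2. Of the 40 members, 15 had a mean of at least 1 FPKM over the 3 libraries, 7 MMP, 5 ADAMTS and all 3 TIMP genes, and 4 were above 10 FPKM. For these 15 a difference is called where log2(FPKM + 1) differs by 1.5-fold or more. Fold values printed for a gene are plain FPKM ratios with a 95% Clopper-Pearson interval on the reads, which covers counting error only.

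In sh1089-1 against shNC, 3 of the 15 members were called higher (ADAMTS6, MMP3 and TIMP3) and 2 lower (TIMP2 and ADAMTS10). Over all 10313 protein-coding genes at that level, 4.55% were called higher and 4.56% lower. The members' median difference was −0.16 in log2(FPKM + 1), beside −0.02 for those genes. In sh1089-2 against shNC, 1 member was called higher (ADAMTS6) and 1 lower (ADAMTS10), with 4.04% and 4.15% of protein-coding genes called, and the medians were −0.07 and −0.04. These comparisons share the shNC library. In sh1089-2 against sh1089-1, 0 members were called higher and 1 lower (MMP3), with 1.22% and 1.01% called, and the medians were 0.20 and −0.01. At 2-fold, ADAMTS6 and MMP3 were higher and 0 members lower in sh1089-1 against shNC, where 0.834% and 0.688% of protein-coding genes were called. In sh1089-2 against shNC only ADAMTS6 was higher at 2-fold and 0 lower, where 1.02% and 0.679% were called. Between the hairpins 0 were higher and MMP3 was lower, where 0.107% and 0.0776% were called. MMP3 passed the level filter through sh1089-1 alone, since its mean over the other libraries was 0.870 FPKM, so it could pass only by differing.

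**Figure D1:**
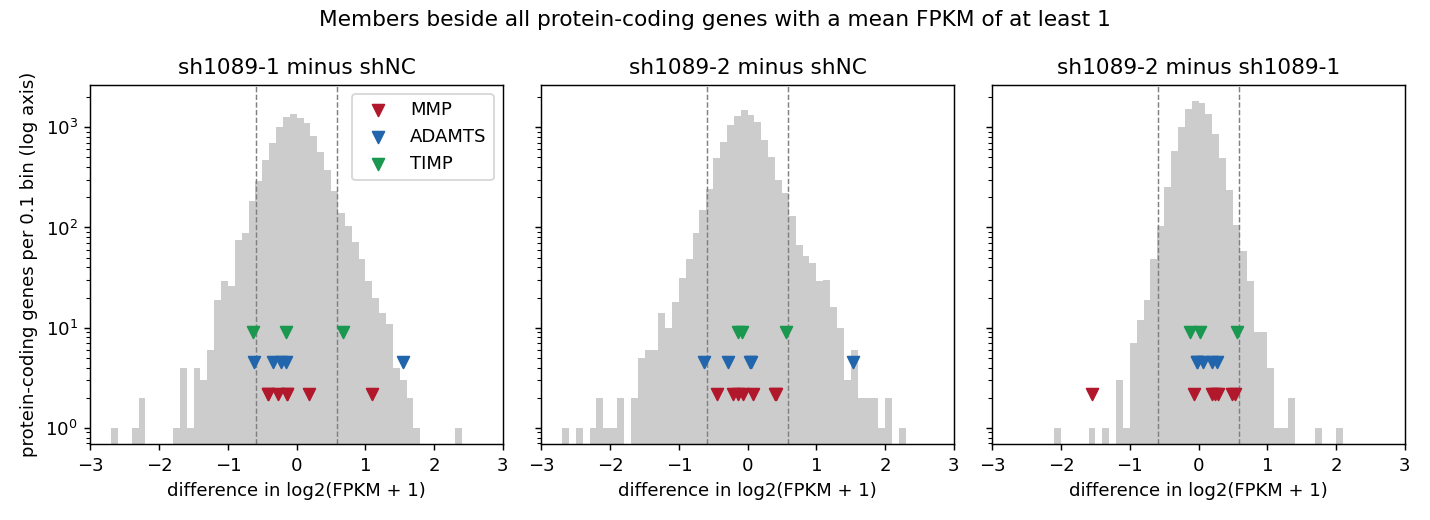
Differences in log2(FPKM + 1) of the 15 members with a mean of at least 1 FPKM (triangles, by family, at heights chosen for display) over the histogram of all 10313 protein-coding genes at that level, for the 3 comparisons. The vertical axis is logarithmic, dashed lines mark 1.5-fold, and 1, 1 and 2 genes lie outside the axes. ADAMTS6 stands at 1.54 and 1.53 against shNC, and MMP3 at −1.55 between the hairpins.

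The membrane-type MMPs made up most of the MMP signal, 88.2%, 83.0% and 87.6% of the summed MMP FPKM. MMP14 (chr14:22836557-22849027), which cuts collagen at the cell surface and activates MMP2, had 65.8, 49.3 and 69.5 FPKM. It lay 1.34-fold (1.26 to 1.41) below shNC in sh1089-1 and was 1.06-fold (1.00 to 1.11) higher in sh1089-2, both within the 1.5-fold bounds. MMP15, of the same membrane-type group, had 9.81, 8.83 and 8.37 FPKM. MMP17, anchored to the membrane by a lipid, had 7.54, 5.40 and 6.78 FPKM and was 1.40-fold (1.17 to 1.67) lower in sh1089-1. None of these 3 genes was called in any comparison.

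MMP24 had 6.60, 5.90 and 8.99 FPKM, with the highest value in sh1089-2. By the plain ratio it was 1.52-fold (1.29 to 1.81) higher in sh1089-2 than in sh1089-1, though not called on the log2(FPKM + 1) scale. Of its exon bases 18.1% lie under MMP24OS on the opposite strand, and whether the counting used the strand is not given in the sources used here. MMP16 and MMP25 lay below the filter. MMP16 had 1.03, 0.693 and 0.672 FPKM, and its fold below shNC was 1.48 (1.11 to 1.98) in sh1089-1 and 1.53 (1.13 to 2.08) in sh1089-2. MMP25, the other lipid-anchored enzyme, had 1.08, 0.544 and 0.761 FPKM. Its 49, 22 and 27 reads put sh1089-1 1.98-fold (1.18 to 3.45) below shNC. The antisense gene MMP25-AS1 covers 35.2% of its exon bases.

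Of the gelatinases, which cut denatured collagen and basement membrane collagen, MMP9 was the main one. It had 7.04, 8.09 and 9.73 FPKM, highest in sh1089-2, where it was 1.38-fold (1.12 to 1.71) above shNC and not called. SLC12A5-AS1 on the opposite strand covers 18.4% of its exon bases. MMP2, the substrate of MMP14, was nearly silent with 16, 2 and 6 reads, or 0.318, 0.0446 and 0.153 FPKM. Its ratio in sh1089-1 was 7.12-fold lower, with an interval from 1.68 to 63.9, set by the 2 reads of that library. Of the MMP2 exon bases 3.53% are shared with AC007336.3 on the same strand, as are 128 runs of 50 bases.

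The secreted MMPs of chromosome 11q22 were low. MMP3, stromelysin 1, which cuts proteoglycans and fibronectin and activates other MMPs, had 1.16, 3.62 and 0.581 FPKM on 23, 64 and 9 reads. The sh1089-1 library was the high one, 3.12-fold (1.91 to 5.27) above shNC, and sh1089-2 was 6.24-fold (3.09 to 14.3) below sh1089-1. Against shNC the sh1089-2 value was 2.00-fold (0.890 to 4.90) lower, a difference within counting error. MMP1, the interstitial collagenase, lies 37641 bp from MMP3. It had 1.38, 0.958 and 0.486 FPKM on 29, 18 and 8 reads, and was 2.83-fold (1.26 to 7.17) lower in sh1089-2. The pseudogene WTAPP1 on the opposite strand covers 7.61% of the MMP1 exon bases and 1.56% of those of MMP3. In sh1089-1 MMP1 was 1.43-fold (0.770 to 2.74) lower, within counting error, where MMP3 was high. MMP10, a stromelysin whose transcripts share 59 runs of 50 bases with MMP3, had 1 read in shNC and 0 in the other libraries. MMP7 and MMP13, a matrilysin and a collagenase of the same cluster, had no read.

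Among the remaining MMPs, MMP19 had 1.40, 0.988 and 1.28 FPKM and was not called, and 17.4% of its exon bases lie under the pseudogene TMEM198B on the opposite strand. MMP11, stromelysin 3, had 0.399, 0.204 and 0.650 FPKM on 22, 10 and 28 reads. It was lowest in sh1089-1, and the sh1089-2 value was 3.19-fold (1.51 to 7.36) above that. The ratios of MMP11 to shNC both had intervals that hold 1. CHCHD10 on the opposite strand covers 4.21% of the MMP11 exon bases and had 34.5, 34.8 and 27.9 FPKM. Whether its reads add to the few of MMP11 was not tested.

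**Figure D2:**
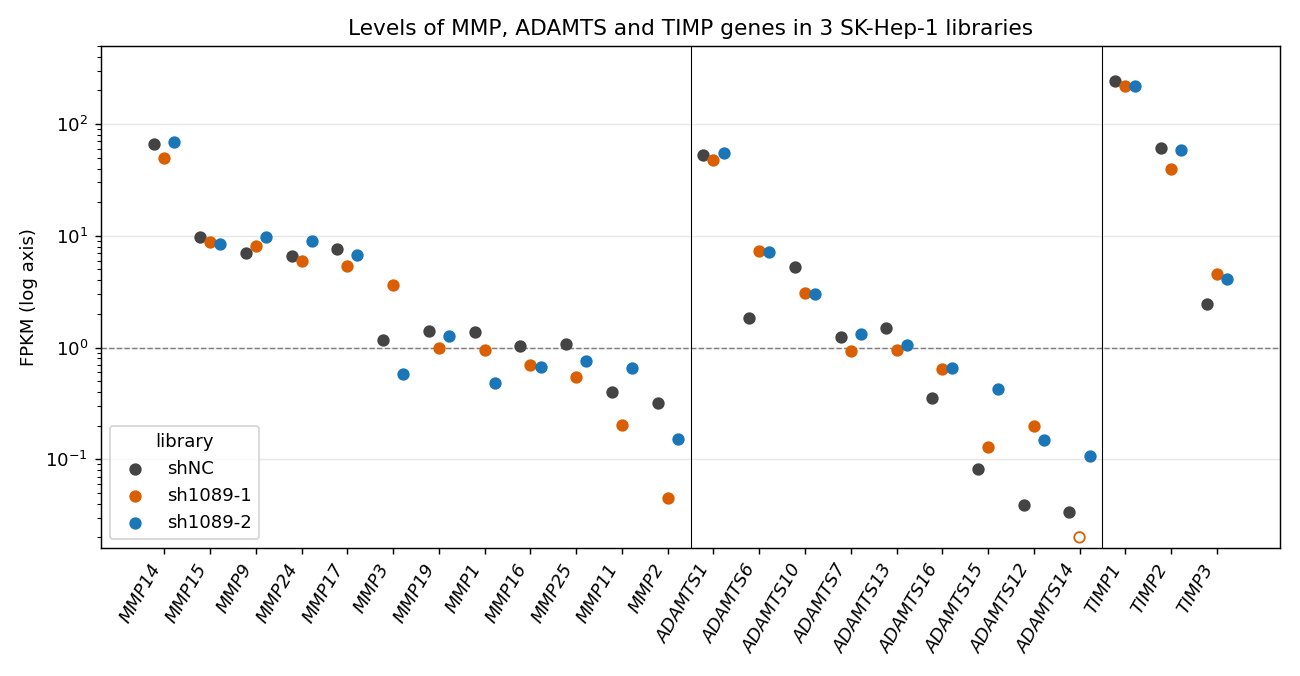
FPKM on a logarithmic axis of the 24 members with a mean of at least 1 FPKM or a ratio past 1.5-fold beyond counting error in any comparison, by family and mean level, in shNC, sh1089-1 and sh1089-2 (1 library each, so no error bars). The dashed line is 1 FPKM and the open circle a value of 0. TIMP1 lies at 218 to 242 FPKM, MMP14, ADAMTS1 and TIMP2 between 39.2 and 69.5, and the ADAMTS6 points of both hairpins above that of shNC.

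ADAMTS1 (chr21:26835747-26845409), a protease of the proteoglycans versican and aggrecan, supplied most of the ADAMTS signal. It had 53.3, 47.6 and 54.7 FPKM, the hairpin libraries lying on either side of shNC. The sh1089-1 level lay 1.12-fold (1.07 to 1.17) below shNC, and that of sh1089-2 lay 1.03-fold (0.980 to 1.08) above it. In shNC it ranked 690th of 16858 protein-coding genes by FPKM.

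The ADAMTS6 and ADAMTS10 genes encode closely related enzymes tied to fibrillin, and here they stood on different sides of the control. ADAMTS6 had 1.83, 7.27 and 7.16 FPKM on 168, 593 and 513 reads. Both hairpin libraries were high, 3.96-fold (3.33 to 4.73) and 3.91-fold (3.28 to 4.68) above shNC, and they differed from each other by a ratio of 0.986 (0.874 to 1.11). ADAMTS10 had 5.24, 3.07 and 3.02 FPKM on 320, 167 and 144 reads. The sh1089-1 library lay 1.71-fold (1.41 to 2.07) and sh1089-2 1.74-fold (1.42 to 2.13) below shNC, again with a ratio near 1 between the hairpins, 0.983 (0.781 to 1.24). In shNC the ADAMTS10 level was above that of ADAMTS6, and in each hairpin library it was below. No run of 50 bases in the transcripts of either gene occurs in a transcript of another gene.

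For ADAMTS6, ADAMTS10 and TIMP3 the differences of neighbouring genes are given beside their own. ADAMTS6 lies on the minus strand of chromosome 5 (65148736 to 65481920), and its 50 nearest protein-coding genes at 1 FPKM or more had median differences of −0.07 and −0.10. The nearest, CENPK, had 1.30, 2.24 and 1.72 FPKM, and PPWD1 had 3.59, 3.78 and 3.33. ADAMTS10 lies on the minus strand of chromosome 19 (8580242 to 8610735), where the 50 nearest had medians of −0.02 and 0.11. The nearest of these, ZNF414, had 3.05, 3.65 and 3.81 FPKM, and the next, HNRNPM, 91128 bp away, had 41.0, 64.3 and 59.3. TIMP3 lies on the plus strand of chromosome 22 (32801701 to 32863043), where they had −0.01 and 0.01.

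Other ADAMTS genes were low. ADAMTS13, which trims von Willebrand factor, had 1.49, 0.956 and 1.05 FPKM. The sh1089-1 level lay 1.56-fold (1.10 to 2.24) below shNC and that of sh1089-2 lay 1.42-fold (0.996 to 2.05) below it. ADAMTS13 was not called on the log2(FPKM + 1) scale. ADAMTS7, a protease of cartilage oligomeric matrix protein, had 1.25, 0.933 and 1.33 FPKM and was not called. Its transcripts share 14.8% of their runs of 50 bases with other genes, mostly the pseudogene ADAMTS7P3, so its level is uncertain.

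The ADAMTS genes below the filter rested on few reads. ADAMTS12, related to ADAMTS7, had 0.0389, 0.197 and 0.149 FPKM on 4, 18 and 12 reads, so that sh1089-1 lay 5.05-fold (1.66 to 20.5) and sh1089-2 3.84-fold (1.16 to 16.3) above shNC. ADAMTS16 had 0.351, 0.644 and 0.653 FPKM on 22, 36 and 32 reads, with folds over shNC of 1.84 (1.05 to 3.28) and 1.86 (1.05 to 3.36). Both genes were thus low in shNC, by few reads. ADAMTS15, a protease of proteoglycans, had 0.0824, 0.130 and 0.422 FPKM on 5, 7 and 20 reads. Its sh1089-2 value lay 5.12-fold (1.86 to 17.5) above shNC and 3.26-fold (1.32 to 9.12) above sh1089-1. ADAMTS14, a procollagen N-proteinase, had 0.0336, 0 and 0.107 FPKM on 2, 0 and 5 reads. The counting interval of its sh1089-2 to sh1089-1 ratio, 5 reads against 0, had a lower limit of 1.04 and no upper one.

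Over the members below the filter that had a read in either library, ratios of 1.5-fold or more with an interval that leaves out 1 were found as follows. In sh1089-1 against shNC, 2 of 19 were higher and 2 lower, where 3.91% and 11.2% of protein-coding genes at that level were. In sh1089-2 against shNC, 3 of 18 were higher and 2 lower, where 5.71% and 8.77% were. Between the hairpins 3 of 18 were higher in sh1089-2 and 0 lower, where 6.8% and 3.35% were. Over all members with a read, those above the filter included, 5 of 34 were higher and 5 lower in sh1089-1 by this rule, where 5.75% and 9.37% of protein-coding genes were. The same counts in sh1089-2 were 5 and 3 of 33, where 5.99% and 7.88% were, and between the hairpins 4 and 1 of 33, where 4.18% and 2.67% were. With so few members, no result is read from these shares. The 16 members not named by level or ratio reached at most 13 reads in a library and 0.353 FPKM. Of these, MMP7, MMP13, ADAMTS9, ADAMTS19 and ADAMTS20 had no read in any library, and a count of 0 allows up to 3 reads in a library.

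Of the inhibitors, TIMP1 and TIMP2 were abundant and TIMP3 was low. TIMP1 (chrX:47582313-47586789) had 242, 218 and 221 FPKM and ranked 132nd, 145th and 143rd of 16858 protein-coding genes. The sh1089-1 level lay 1.11-fold (1.06 to 1.17) below shNC and that of sh1089-2 lay 1.10-fold (1.04 to 1.15) below it, within the 1.5-fold bounds. TIMP2 (chr17:78852977-78925387), which bridges MMP14 and the MMP2 precursor at the cell surface, had 61.6, 39.2 and 58.1 FPKM. Here sh1089-1 was the low library, 1.57-fold (1.49 to 1.66) below shNC on 2105 against 3711 reads, while sh1089-2 was 1.06-fold (1.01 to 1.11) below it. The sh1089-2 to sh1089-1 ratio of TIMP2 was 1.48 (1.40 to 1.57). Of its exon bases 3.52% are shared with CEP295NL on the same strand, as are 152 runs of 50 bases, and 6.52% lie under AC022966.1 on the opposite strand.

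TIMP3 had 2.46, 4.51 and 4.08 FPKM on 121, 198 and 157 reads, with the shNC value lowest. It was 1.84-fold (1.46 to 2.32) above shNC in sh1089-1 and 1.66-fold (1.30 to 2.12) in sh1089-2, where its difference of 0.56 in log2(FPKM + 1) fell just short of the bound. The hairpin libraries differed by a ratio of 0.904 (0.728 to 1.12). By the call rule, TIMP2 was lower and TIMP3 higher in sh1089-1 against shNC, and 0 of the 3 inhibitors were called in sh1089-2. TIMP1 was at 98.6, 48.3 and 54.1 times the level of TIMP3.

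**Figure D3:**
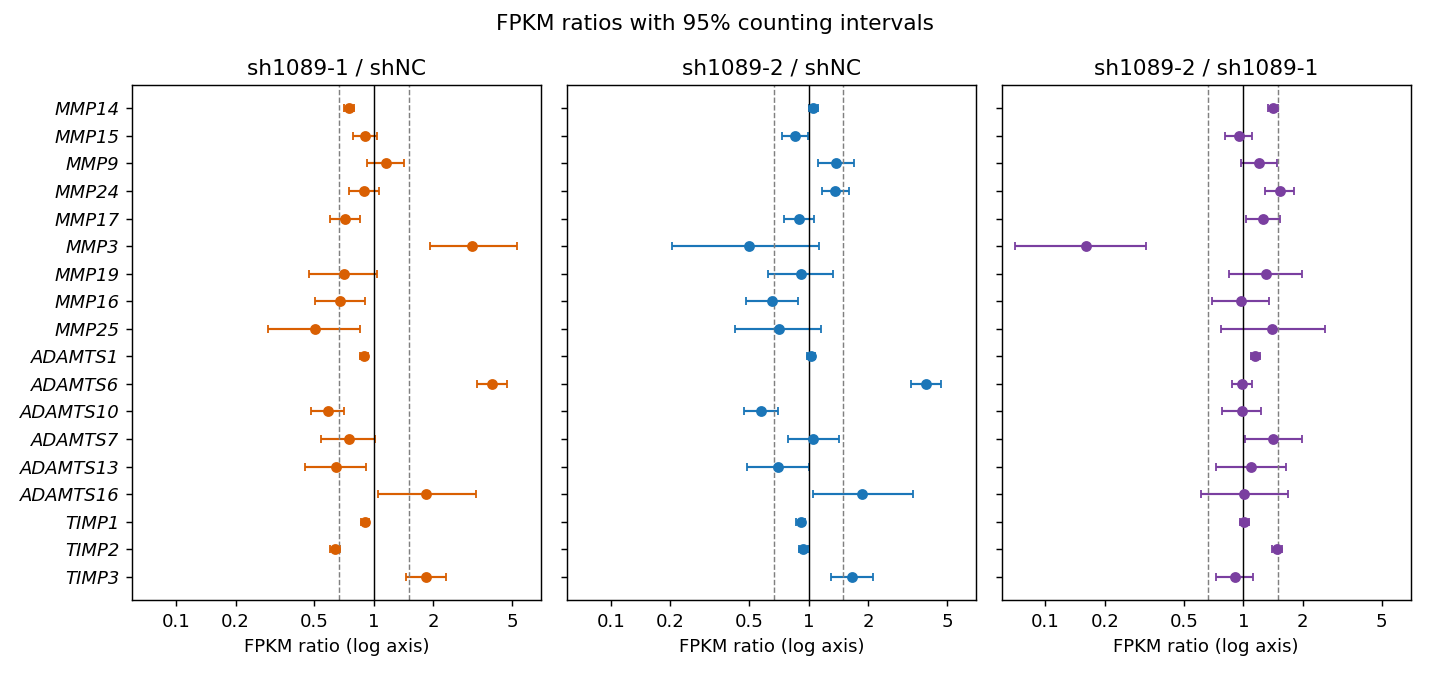
FPKM ratios on a logarithmic axis for the 18 named members with at least 90 reads over the 3 libraries, in sh1089-1 and sh1089-2 against shNC and in sh1089-2 against sh1089-1. Bars are 95% counting intervals, the solid line is a ratio of 1 and dashed lines mark 1.5-fold. ADAMTS6 lies at 3.96 and 3.91, ADAMTS10 at 0.586 and 0.576, and MMP3 at 3.12 and 0.501.

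Summed levels set proteases beside inhibitors. The MMP genes summed to 104, 85.1 and 109 FPKM, the ADAMTS genes to 63.8, 61.1 and 68.9, and the TIMP genes to 306, 262 and 283. The TIMP sum was 1.82, 1.79 and 1.59 times the sum of the listed MMP and ADAMTS genes. The MMP, ADAMTS and TIMP sums were each lowest in sh1089-1, where MMP14 and TIMP2 were at their lowest. TIMP2 stood at 0.935, 0.796 and 0.835 times the level of MMP14. These are mRNA levels, and neither protein nor enzyme activity was measured here.

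RefSeq promoter windows (GRCh38.p14, 250 bases before to 50 after the start) were given for 22 of the 40 members, as 23 windows. Those of ADAMTS6, TIMP3 and ADAMTS10 follow, 5′ to 3′ on the gene's strand, because they are the members called against shNC for which a window was given. Capitals mark matches on either strand. The letters searched were TGANTCA for AP-1, TGACGTCA for the cyclic AMP response element, and TATAAA for the TATA box. Others were CCAAT for its box, GGGCGG for SP1, CCGGAAG for ETS factors and TTTNNCGC for E2F.
ADAMTS6: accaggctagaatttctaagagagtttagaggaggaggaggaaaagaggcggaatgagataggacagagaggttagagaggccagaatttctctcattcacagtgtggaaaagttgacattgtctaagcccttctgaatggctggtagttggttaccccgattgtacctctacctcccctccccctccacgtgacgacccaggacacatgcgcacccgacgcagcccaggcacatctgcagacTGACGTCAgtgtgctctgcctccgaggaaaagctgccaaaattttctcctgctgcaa
TIMP3: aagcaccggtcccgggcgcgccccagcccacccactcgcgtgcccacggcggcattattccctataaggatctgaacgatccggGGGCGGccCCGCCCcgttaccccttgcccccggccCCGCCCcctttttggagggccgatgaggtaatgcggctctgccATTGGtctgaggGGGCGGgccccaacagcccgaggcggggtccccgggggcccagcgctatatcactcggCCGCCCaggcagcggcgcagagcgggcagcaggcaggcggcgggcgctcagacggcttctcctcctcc
ADAMTS10: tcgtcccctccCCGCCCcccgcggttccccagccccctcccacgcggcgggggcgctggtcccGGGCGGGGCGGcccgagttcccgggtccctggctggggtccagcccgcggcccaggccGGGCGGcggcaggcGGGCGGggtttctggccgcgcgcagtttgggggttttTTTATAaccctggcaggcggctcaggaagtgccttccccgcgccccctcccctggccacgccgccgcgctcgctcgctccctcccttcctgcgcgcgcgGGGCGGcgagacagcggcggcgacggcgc
They lie at chr5:65481871-65482170 (minus strand), chr22:32801455-32801754 (plus strand) and chr19:8610666-8610965 (minus strand, the upstream of 2 starts). The ADAMTS6 window holds 1 match, TGACGTCA, which 1.85% of 35116 windows hold, with 9 CG pairs and 52.0% G and C. TIMP3 has 5 matches to GGGCGG and 1 to CCAAT, with 31 CG pairs. ADAMTS10 has 6 to GGGCGG, of which 1 pair overlaps, and 1 to TATAAA, with 43 CG pairs. The window of its other start, chr19:8592167-8592466, has 0 matches to either, 1 to CCAAT and 15 CG pairs. GGGCGG is in 45.0% of all windows and in 18 of the 23 member windows, CCAAT in 34.6% and 10, and TATAAA in 11.5% and 4. TGANTCA was in 3 member windows, those of MMP7, MMP10 and ADAMTS12, and in 7.71% of all. CCGGAAG and TTTNNCGC are in 10.3% and 6.89% of all windows and in 0 of the member windows. A match is a description of letters, not of binding.

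The other genes of the pathway were read from lists chosen with earlier results of these data known, so their counts are a description. Measured genes are those whose mean reached 1 FPKM, and the counts cover only these. In the order below, 19 of 25, 5 of 10, 3 of 6, 16 of 27 and 20 of 22 listed genes were measured. The counts below are to be read against the shares called over all protein-coding genes, 4.55% higher and 4.56% lower in sh1089-1 and 4.04% and 4.15% in sh1089-2, and their medians of −0.02 and −0.04. Of 19 measured genes of activation, inhibition and clearance, 1 was called higher and 3 lower in sh1089-1, and 2 and 3 in sh1089-2, with medians of −0.18 and −0.00. FURIN, which activates membrane-type MMPs and ADAMTS precursors, had 20.0 FPKM in each library. RECK, a membrane-bound MMP inhibitor, had 1.46, 1.11 and 1.18 FPKM, and BSG, an inducer of MMPs, 126, 154 and 154. Neither was called. The RECK ratios to shNC, 0.761 (0.538 to 1.07) and 0.809 (0.566 to 1.15), have intervals that hold 1. PLAT, tissue plasminogen activator, was called higher in both, with 13.4, 31.2 and 66.6 FPKM, and SPOCK1, a matrix proteoglycan, in sh1089-2, with 8.58, 11.1 and 15.8 FPKM. ITGB3, an integrin subunit, was called lower in both, with 2.64, 0.621 and 0.871 FPKM. It reached the level filter through shNC alone, so it could pass only by differing, and its place among the 3 lower genes is no support. CTSB and CTSL, cathepsins, were called lower in both, with 386, 189 and 230 and with 110, 53.8 and 70.6 FPKM.

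Of 5 measured ADAM sheddases, relatives that release proteins from the cell surface, 1 was called lower in sh1089-1 (ADAM17) and 1 higher in sh1089-2 (ADAM19). ADAM17, which releases tumour necrosis factor, had 8.11, 4.43 and 5.24 FPKM. It lay 1.83-fold (1.63 to 2.05) below shNC in sh1089-1 and 1.55-fold (1.38 to 1.73) in sh1089-2. ADAM19 had 484, 661 and 686 reads, not scaled to depth. Its FPKM lay 1.53-fold (1.36 to 1.73) above shNC in sh1089-1 and 1.81-fold (1.61 to 2.04) in sh1089-2. By ratio each gene thus passed 1.5-fold in both hairpin libraries, though each was called in only 1. ADAMTS-like proteins share the noncatalytic part of ADAMTS enzymes. Of 3 measured, ADAMTSL4 and THSD4 were called lower in sh1089-1 and 0 were called in sh1089-2, with medians of −0.63 and −0.14, where 4.56% of protein-coding genes were lower in sh1089-1. With 3 genes, nothing is read from that count. ADAMTSL4 had 10.2, 5.87 and 8.93 FPKM, and THSD4 had 4.07, 2.27 and 3.90. ADAMTSL1, below the filter, went the other way, with 0.202, 0.562 and 0.338 FPKM on 29, 72 and 38 reads. By ratio it lay 2.79-fold (1.79 to 4.45) above shNC in sh1089-1 and 1.68-fold (1.01 to 2.82) above it in sh1089-2.

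Of 16 measured substrates, 1 was called higher and 2 lower in sh1089-1, and 2 and 2 in sh1089-2, with medians of −0.14 and 0.06. FN1, fibronectin, had 20.2, 18.5 and 32.1 FPKM and was called higher in sh1089-2. CCN2, a matricellular protein that MMPs cut, had 50.6, 85.0 and 96.0 FPKM. SPP1 (osteopontin) and LAMC1 (a laminin chain) were the lower ones, with 64.9, 23.5 and 21.2 and with 126, 64.6 and 78.5 FPKM. Of 20 measured transcription factors with known sites in MMP promoters, EPAS1 and CEBPB were called lower in both hairpins and EGR1 higher in sh1089-1, with medians of −0.03 and −0.01. EPAS1 had 52.3, 10.6 and 13.7 FPKM, CEBPB had 111, 57.1 and 44.7, and EGR1 had 0.894, 2.48 and 1.45. FOSL1 and JUN, which form AP-1, had 191, 284 and 253 and 72.5, 98.9 and 107 FPKM and were not called. Other AP-1 genes were split, and none of them was called. JUNB lay 1.43-fold below shNC in sh1089-1 and 1.34-fold in sh1089-2, and FOSL2 lay 1.34-fold and 1.18-fold below it. These intervals leave out 1. The JUND ratios to shNC were 0.988 (0.907 to 1.08) and 1.31 (1.21 to 1.43). FOS and FOSB lay below the filter, and the intervals of their ratios to shNC hold 1.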

How the data were processed

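Total RNA was enriched for mRNA and made into strand-specific libraries, per the labels' protocols. The authors deposited FPKM for 22464 Ensembl identifiers in 3 libraries, 1 per group. FastQC, StringTie and GRCh38 are named per the submitters' processing notes; aligner, annotation release and strand setting: not given in the sources used here. Symbols came from the supplied name table (22460 identifiers), and gene types, exons and coordinates from GENCODE 29 on GRCh38 (22444).

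Whole reads were recovered from the FPKM by finding a gene length that makes all 3 values whole; this worked for 99.9% of 19219 genes above 0, with the length nearest to GENCODE taken. The recovery and the call rule were tested on simulated data. Differences were taken in log2(FPKM + 1), called at 1.5-fold where a gene's mean reached 1 FPKM; ratios have 95% Clopper-Pearson intervals (scipy 1.17.1, Python 3.11.15). No p-value was computed. Members named are those with a mean FPKM of at least 1, or a ratio of 1.5-fold with an interval that leaves out 1. Pathway genes named are called ones with the largest differences. FURIN, RECK, BSG, FOSL1, JUN, JUNB, FOSL2, JUND, FOS, FOSB and ADAMTSL1 were added after their values were seen. Members, lists and rules were chosen with earlier results of these data known. Alternatives were a pseudocount of 0.1, other filters, TPM rescaling, median centring, a 2-fold bound and calls on ratios.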

Additional observations from a re-analysis of the deposited data

Results flagged for a closer look

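The hairpin libraries lay on opposite sides of shNC for MMP14 and MMP3, and the difference between them was not tested, since each is 1 library. MMP14 differed from shNC by −0.41 in log2(FPKM + 1) in sh1089-1 and by 0.0775 in sh1089-2, and neither counting interval of the ratio held 1. MMP3 differed by 1.10 in sh1089-1 and by −0.45 in sh1089-2, where the interval of the ratio did hold 1.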

How the results depend on the processing

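No paired analysis was possible because each group is 1 library, and for the same reason no replicate could be left out. With 1 to 3 members called, the counts moved easily. In sh1089-1 against shNC the 3 higher and 2 lower members became 1 and 1 at a mean FPKM of at least 5. By ratio with a counting interval they became 5 and 5, and at 2-fold 2 and 0. With a pseudocount of 0.1, and after rescaling to TPM, they were 3 and 3. In sh1089-2 against shNC the 1 higher and 1 lower became 2 and 2 with a pseudocount of 0.1, 3 and 3 after rescaling to TPM, 5 and 3 by ratio, 2 higher after median centring, 2 lower with no filter, and 0 lower at 2-fold or at a mean FPKM of at least 5. In sh1089-2 against sh1089-1 the 0 higher and 1 lower became 3 and 2 in TPM, 4 higher by ratio, 1 higher with a pseudocount of 0.1 and 0 lower at a mean FPKM of at least 5. The stricter filter tests 9 members in place of 15, TPM tests 21, and the ratio takes in low genes. The TPM setting also kept a pseudocount of 1 on larger values. FPKM summed to 317857, 312832 and 302642 in shNC, sh1089-1 and sh1089-2, below the fixed sum of TPM. Causes beyond these were not tested. ADAMTS6 kept a log2 difference from 1.54 to 1.93 for sh1089-1 and from 1.53 to 1.91 for sh1089-2 under the pseudocount, TPM and centring alternatives, and ADAMTS10 between −0.59 and −0.78. TIMP3 in sh1089-2 passed 1.5-fold under each of these, at 0.71, 0.73 and 0.59. Of 216 such member values, 171 stayed within their counting interval, 45 moved outside it, and 3 changed sign, none of them called. The intervals are those in log2(FPKM + 1). Of the 45, 26 came from the pseudocount of 0.1, 18 from TPM and 1 from centring. The pseudocount and TPM settings change the scale of a difference, so the tally cannot show how firm the values are. Depth limits MMP1, MMP2, MMP3, MMP11 and the low ADAMTS genes.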
